A study of Mus musculus with 4 samples.

Results

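The 29 genes described here encode enzymes and regulators of cholesterol and fatty acid synthesis. They were taken by name from the 32285 genes of the feature table, where each of the 29 had a row of its own. Of these, 7 serve the mevalonate steps, 3 the path from farnesyl units to lanosterol, 8 the path from lanosterol to cholesterol, 4 regulate the pathway or carry sterol, and 7 make fatty acids. The first 3 groups together are the 18 sterol synthesis enzymes.

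The cells came from subcutaneous tumors of MC38, a mouse colon adenocarcinoma line, in C57BL/6 mice aged 6 to 8 weeks. The line was either unedited (WT) or carried the A159V substitution of RAC1, a small GTPase, made by CRISPR knock-in and used as 1 clone unless the study says otherwise. From day 3 the mice were given 100 µg of control IgG or of antibody to PD1, a receptor that restrains T cells, every 3 days, and tumors were taken on day 13. CD45+ and CD45- cells were separated on beads and mixed 2 to 1 before droplet capture, which gave 4 libraries, 1 per group: WT and A159V tumors under IgG (WT IgG, A159V IgG) and under the blocking antibody (WT anti-PD1, A159V anti-PD1). All 4 groups therefore held MC38 tumors in intact hosts under an antibody, and no group was untreated. How many animals entered a library is not given in the sources used here, and with 1 library per group a difference between libraries has no replicate check. The substitution changes no count that these files hold, so the genotype labels could not be checked from the data.

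Cholesterol is built from acetyl-CoA through mevalonate, farnesyl diphosphate, squalene and lanosterol, and fatty acids are built from acetyl-CoA by carboxylation, elongation and desaturation. Most of these genes are targets of the SREBP factors encoded by Srebf1 and Srebf2, which are held in the endoplasmic reticulum by the INSIG proteins when sterols are plentiful and released when sterols run low. The LXR receptors act from the other side: when oxysterols accumulate they induce efflux genes such as Abca1 and Abcg1. Dividing cells need both kinds of lipid for membranes, and macrophages take up and export much of the cholesterol they handle.

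Promoters are shown for 4 members that the results below turn on: Hmgcs1, Idi1 and Cyp51, sterol enzymes high in tumor-like cells, and Insig1, a SREBP target that did not follow them. Each line gives the 200 bases before the annotated start from RefSeq (GRCm38.p6), on the strand of the gene, with capitals for the sterol regulatory element TCACNCCAC, the CCAAT box CCAAT and the GC box GGGCGG or their reverse complements.
Hmgcs1, chr13:119690151-119690350, plus strand: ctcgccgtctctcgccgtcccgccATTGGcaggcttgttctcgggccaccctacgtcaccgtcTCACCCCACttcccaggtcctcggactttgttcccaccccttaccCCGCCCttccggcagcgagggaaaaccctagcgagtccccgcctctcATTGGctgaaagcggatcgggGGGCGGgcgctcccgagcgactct
Idi1, chr13:8885406-8885605, plus strand: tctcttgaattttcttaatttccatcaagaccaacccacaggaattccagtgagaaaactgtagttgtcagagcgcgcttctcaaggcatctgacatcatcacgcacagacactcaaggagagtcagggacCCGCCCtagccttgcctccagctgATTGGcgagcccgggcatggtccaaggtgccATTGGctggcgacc
Cyp51, chr5:4104698-4104897, minus strand: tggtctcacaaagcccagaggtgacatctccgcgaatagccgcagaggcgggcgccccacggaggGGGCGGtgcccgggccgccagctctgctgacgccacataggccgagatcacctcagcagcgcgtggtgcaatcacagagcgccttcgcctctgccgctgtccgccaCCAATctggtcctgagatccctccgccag
Insig1, chr5:28071212-28071411, plus strand: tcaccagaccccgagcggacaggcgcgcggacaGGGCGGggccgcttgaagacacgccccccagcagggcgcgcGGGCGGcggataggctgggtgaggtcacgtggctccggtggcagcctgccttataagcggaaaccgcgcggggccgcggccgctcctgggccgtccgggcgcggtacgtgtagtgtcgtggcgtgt

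RefSeq promoters, from 250 bases before to 50 after the start, matched 23 of the 29 members. Fdps, Fdft1, Sqle, Scd1 and Scd2 had no entry. Stard4 was not matched because members on chromosome 18 were left out, while the 27025 genes below kept that chromosome. On either strand, a CCAAT box stood in 20 of the 23 (87%) against 41.1% of 27025 genes, a GC box in 19 (82.6%) against 38.2%, and both in 18 (78.3%) against 15.8%. The CCAAT box binds NF-Y and the GC box binds Sp1, factors known to work beside SREBP. The strict sterol element was found in 1 member, Hmgcs1 (4.35%, against 1.44% of all genes). No overlap between motifs was removed, and a match or its lack in this window describes the letters alone.

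The libraries held 7430 to 9311 barcodes and 54402632 to 125227747 UMIs (unique molecular identifiers, 1 per captured RNA molecule), with 13 to 22 barcodes shared between any pair of libraries. After cells with at most 500 genes and likely doublets were removed, 6466 to 8248 cells per library remained and formed 23 clusters, made without the 29 members. Clusters were called by marker genes. The tumor-like class rested on Rhox5, Prl2c2 and Prl2c3, since the epithelial keratins Krt8, Krt18 and Krt19, also on its list, were at or near 0. One cluster was added to it by a rule set after its values were seen, Rhox5 in at least 50% of cells with at least 3 of 4 collagen VI and Edil3 markers. The tumor-like class had 2020 WT IgG cells and 2814 A159V IgG cells, but only 60 from WT anti-PD1, against 2107 from A159V anti-PD1. Of the 60, 41 were in the added cluster and 11 and 8 in the others. Without the later rule they would fall under the 50 cells that a profile needed. The WT anti-PD1 library stood apart from the other 3 in these cell numbers and in its RNA, with the values given beside each result that rests on it.

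Within each library, sterol synthesis genes were higher in tumor-like cells than in dendritic-like, stromal-like, macrophage-like, T-like and natural killer (NK)-like cells. Dendritic-like cells came next among these classes, by margins that differed between libraries. B or plasma-like cells, given under other observations, lay above dendritic-like cells in A159V IgG. Levels are UMI counts of a class in a library scaled to a common total (CPM), with exact Poisson 95% intervals that cover counting error only. The 18 sterol enzymes summed to 1065 CPM (1057 to 1073) in tumor-like cells of WT IgG, 940 (934 to 947) in A159V IgG, 1090 (1083 to 1097) in A159V anti-PD1 and 421 (398 to 444) in the 60 tumor-like cells of WT anti-PD1. In macrophage-like cells the sum was 232 CPM under IgG and 158 under anti-PD1 in WT tumors, and 249 and 211 CPM in A159V tumors. T-like cells held 294 and 170 CPM in WT tumors and 323 and 258 CPM in A159V tumors. Even the WT anti-PD1 tumor-like value lay above each macrophage-like and T-like value, though it exists only through the cluster added by the later rule.

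Dendritic-like cells, which present antigen to T cells, held 640 and 198 CPM of the 18 enzymes under IgG and anti-PD1 in WT tumors, and 615 and 469 CPM in A159V tumors. Stromal-like cells held 332 and 160 CPM in WT and 273 and 339 CPM in A159V tumors. NK-like cells held 225 and 149 CPM in WT and 469 and 291 CPM in A159V tumors, so that the A159V IgG value stood above the other 3. The NK-like cells of these libraries sat in different clusters: the deepest noncycling one, led by granzyme genes, held 68 cells of WT IgG and 244 of A159V IgG, and a cycling one 18 and 56. In each of these 6 classes the lowest value was that of WT anti-PD1. Within a library the order below the tumor-like class was not the same everywhere: NK-like cells lay under T-like cells in WT IgG and above them in A159V IgG.

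**Figure D1:**
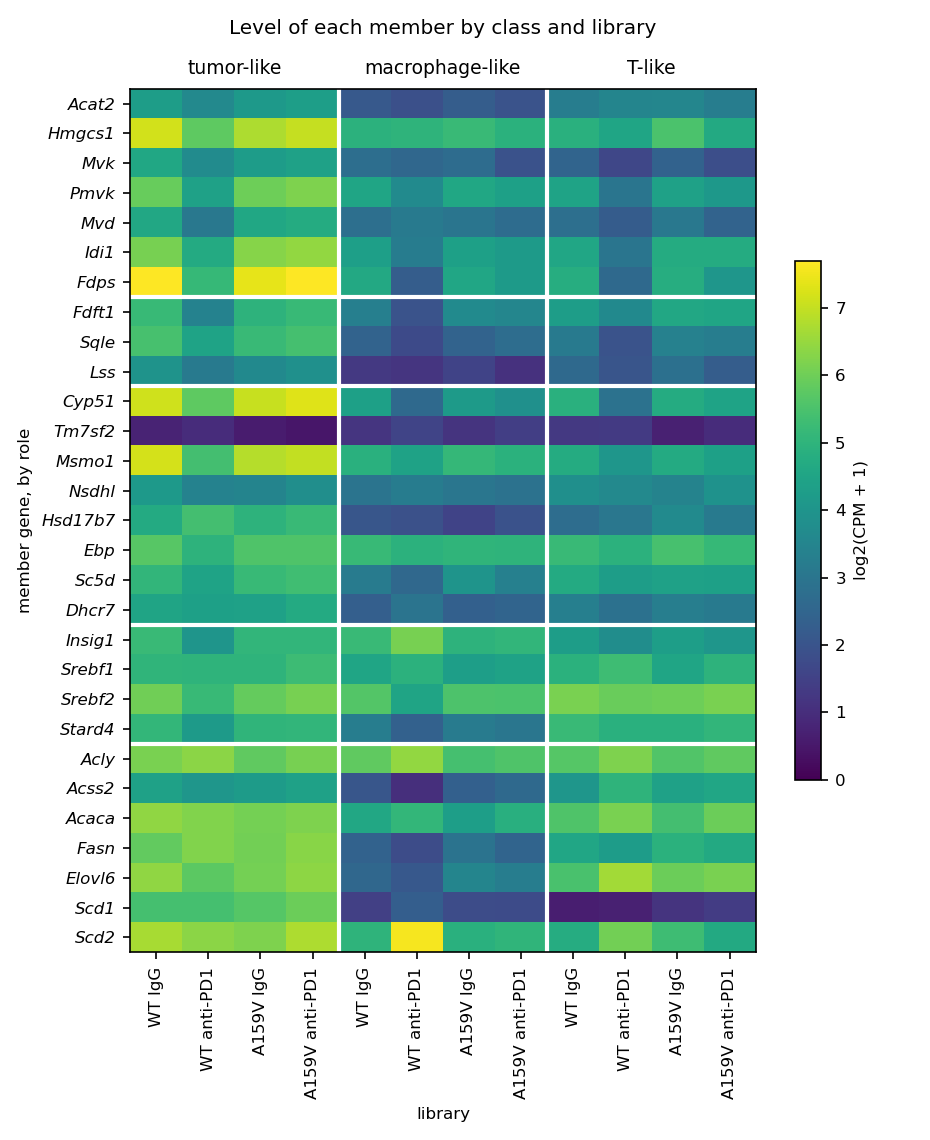
Level of each of the 29 members, as log2(CPM + 1), in tumor-like, macrophage-like and T-like cells of the 4 libraries. Rows are ordered by role, with white lines between roles. The mevalonate and lanosterol rows are brightest in the tumor-like columns, and Scd2 stands out in macrophage-like cells of WT anti-PD1 at 192 CPM.

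As a sum, the 7 fatty acid genes were spread more evenly over these classes. Gene by gene this did not hold between tumor-like and macrophage-like cells, tested below. Their median log2 difference there was 2.29, beside 1.72 for mevalonate genes, 2.85 for genes to lanosterol and 1.63 from lanosterol on. Between tumor-like and T-like cells it was 0.706, beside 2.1 for mevalonate genes. The 7 genes summed to 460 and 421 CPM in tumor-like cells of WT tumors (IgG, then anti-PD1) and to 396 and 491 CPM in A159V tumors. Macrophage-like cells held 124 and 322 CPM in WT and 113 and 128 CPM in A159V tumors, and T-like cells 205 and 356 CPM in WT and 240 and 259 CPM in A159V tumors. Of the 322 CPM, 192 were Scd2. In these immune classes WT anti-PD1 was highest, the reverse of its place for the sterol enzymes.

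Stray tumor RNA was measured through the tumor-like markers. Their level in macrophage-like cells was 0.224% to 3.51% of that in tumor-like cells, and in T-like cells 0.112% to 2.64%. Of the 29 members, 29 stood above that share in each of these classes and libraries, except T-like cells of A159V IgG, where 28 did. There Scd1, a fatty acid desaturase, was at 2.50% of the tumor-like level and is read as background. Elsewhere in T-like cells it was at 1.363% against a share of 1.316% (WT IgG), 2.588% against 2.365% (A159V anti-PD1) and 1.497% against 0.1118% (WT anti-PD1). In macrophage-like cells it was at 4.117% against 2.569% (WT IgG), 4.855% against 3.506% (A159V IgG) and 3.803% against 2.188% (A159V anti-PD1). How much of this Scd1 was stray was not tested. In T-like cells as a whole Scd1 rested on 2 to 5 UMIs per library.

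Across 72 profiles, each a cluster in a library, 17 of the 18 sterol enzymes had a correlation of at least 0.5 with the mean of the others, on log2(CPM + 10). Over the 63 profiles without tumor-like cells 8 of 18 did, so much of the shared variation lay between tumor-like and other cells. The correlation was 0.946 for Fdps, 0.917 for Sqle, 0.908 for Cyp51 and 0.881 for Msmo1. Without tumor-like cells these 4 stood at 0.861, 0.795, 0.771 and 0.702, while Dhcr7 fell to 0.086, Mvk to 0.179, Acat2 to 0.198 and Mvd to 0.301. The regulators Insig1 (0.177) and Srebf1 (0.265), the fatty acid genes Acly (0.0521) and Scd2 (0.18), and Tm7sf2 (0.0272) were weakly related to the group. The efflux transporters Abca1 (-0.766) and Abcg1 (-0.795) ran the opposite way. Profiles of a library share its depth and chemistry, so these values are descriptions.

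The mevalonate and squalene genes rose in tumor-like cells against both immune classes that could be tested. UMIs were summed per class and library, 12 profiles in all, and compared by edgeR's quasi-likelihood test with library as a block over 13928 genes, with Benjamini-Hochberg adjustment and a threshold of 0.05. The 4 libraries are different conditions, so their differences enter the spread. Against macrophage-like cells, 22 of 29 members were higher in tumor-like cells (background 43.2% of all genes) and 1 was lower (background 35.5%). The median log2 difference of the members was 1.63, beside 0.20 over all genes.

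By role, 7 of 7 mevalonate genes, 3 of 3 genes to lanosterol, 6 of 8 genes from lanosterol to cholesterol, 1 of 4 regulators and 5 of 7 fatty acid genes were higher in tumor-like than in macrophage-like cells. Fdps, the synthase of farnesyl diphosphate, was at 206, 34.7, 170 and 204 CPM in tumor-like cells (WT tumors first, IgG before anti-PD1 in each genotype, as in all lists of 4 values below) and at 23.7, 3.83, 22.5 and 17.2 CPM in macrophage-like cells. The ranges did not overlap, and the fitted difference was 8.004-fold (SE 0.20 on the log2 scale, adjusted p = 1.18e-08, edgeR). Cyp51, the lanosterol demethylase, was at 141, 53.9, 131 and 157 CPM against 19.5, 5.22, 17.5 and 13.5, a 7.73-fold difference (adjusted p = 3.32e-09, edgeR). Sqle, the squalene epoxidase, was at 42.6, 20.9, 36.2 and 42.0 CPM against 4.44, 2.32, 4.49 and 5.76, or 7.22-fold (adjusted p = 5.23e-09, edgeR).

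The widest differences among the members were those of 2 fatty acid genes. Scd1 was at 42.1, 41.7, 49.8 and 62.1 CPM in tumor-like cells and at 1.73, 3.94, 2.42 and 2.36 CPM in macrophage-like cells, a 16.2-fold difference (adjusted p = 1.25e-08, edgeR). Fasn, the fatty acid synthase, was at 56.5, 74.8, 66.2 and 79.5 CPM against 4.34, 2.43, 6.57 and 4.63, or 13.6-fold (adjusted p = 1.74e-09, edgeR). Hsd17b7, a sterol ketoreductase, differed 10.1-fold and Elovl6, which elongates palmitate, 9.57-fold. For Scd1 the macrophage-like values rest on 14 to 34 UMIs, and outside WT anti-PD1 they lay little above the share of stray tumor RNA.

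Not all members followed. Tm7sf2, a sterol reductase, was lower in tumor-like than in macrophage-like cells (0.332-fold, adjusted p = 0.000961, edgeR), at 0.384 to 0.963 CPM against 1.21 to 1.97. Its counts were low, and without WT IgG, without A159V anti-PD1 or at clustering resolution 2 it did not pass the count filter and was not tested. Insig1 (log2 difference -0.67, SE 0.33), Srebf1 (0.36, SE 0.20), Srebf2 (0.31, SE 0.19), Ebp (0.22, SE 0.17), Acly (0.08, SE 0.16) and Scd2 (0.74, SE 0.43) did not pass the test. Insig1 was at 15.1 to 36.4 CPM in tumor-like and 30.4 to 68.1 CPM in macrophage-like cells, and Srebf2 at 35.6 to 68.8 and 21.4 to 48.2, so that the ranges of each overlapped.

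Against T-like cells, 22 of 29 members were again higher in tumor-like cells (background 44.9%) and 0 were lower (background 32.3%). The median log2 difference was 1.64, beside 0.31 over all genes. At an unadjusted p under 0.05 the count of lower members was again 0, as it was under DESeq2. Tm7sf2 (log2 difference -0.73, SE 0.45) had the lowest value. Mevalonate genes were higher in 7 of 7, genes to lanosterol in 3 of 3, genes from lanosterol on in 6 of 8, regulators in 1 of 4 and fatty acid genes in 5 of 7. Tm7sf2, Nsdhl, Srebf1, Srebf2, Stard4, Acss2 and Elovl6 did not pass. Fdps differed 9.69-fold (adjusted p = 1.13e-08), Cyp51 7.34-fold (adjusted p = 6.99e-09) and Mvk, the mevalonate kinase, 6.66-fold (adjusted p = 2.65e-06, all edgeR). Scd1 differed 60.5-fold, a value that depends on the prior count of the fit since T-like cells held 2 to 5 of its UMIs per library. Without the WT anti-PD1 library, 25 members were higher against macrophage-like and 24 against T-like cells. These counts were 21 and 17 without A159V IgG, 21 and 18 without A159V anti-PD1, and 21 and 19 without WT IgG. RLE factors and DESeq2 each gave 21 and 19.

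Between macrophage-like and T-like cells the members differed in both directions. Mvk, Pmvk, Msmo1, Insig1, Acly and Scd1 were higher in macrophage-like cells (6 of 29, background 32.1%). Acat2, Fdft1, Lss, Hsd17b7, Sc5d, Stard4, Acss2, Acaca, Fasn and Elovl6 were lower (10 of 29, background 29.1%). Neither share stood far from its background. Outside WT anti-PD1, Scd1 in both classes was below or little above the share of stray tumor RNA, whose part was not tested. Insig1 was at 35.9, 68.1, 30.4 and 32.5 CPM in macrophage-like cells and at 18.7, 12.7, 18.7 and 15.4 CPM in T-like cells, a 3.53-fold difference (adjusted p = 0.000643, edgeR). Elovl6 was at 4.88, 3.36, 10.4 and 8.68 CPM in macrophage-like cells and at 43.6, 98.5, 61.7 and 70.0 CPM in T-like cells, 7.88-fold higher in T-like cells (adjusted p = 8.52e-06, edgeR). Acss2, which makes acetyl-CoA from acetate, was 5.17-fold and Fasn 3.97-fold higher in T-like cells. Acat2, an acetyl-CoA acetyltransferase, has a close copy, Acat3, with which reads may be shared.

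Genes of neighboring pathways separated the same classes. Of 9 other fatty acid synthesis genes 8 were higher and 0 lower in tumor-like than in macrophage-like cells, among them the desaturase Fads2 (34.8-fold) and Me1 (28.0-fold), which supplies NADPH. Of the 4 SREBP machinery genes, 3 were higher against macrophage-like and 1 against T-like cells. Over all genes 43.2% were higher and 35.5% lower against macrophage-like cells, and 44.9% and 32.3% against T-like cells. The excess was not particular to lipid genes. Of 10 cell cycle genes, 10 were higher against macrophage-like and 9 against T-like cells, with median log2 differences of 2.59 and 1.07. The part of division in the members' differences was not tested.

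LXR and efflux genes ran the other way. All 6 listed genes were lower in tumor-like than in macrophage-like cells, with a median log2 difference of -7.64, and 5 of 6 were lower than in T-like cells. Nr1h3, which encodes LXR alpha, was 129.6-fold and Abca1 322.5-fold higher in macrophage-like cells (adjusted p = 5.3e-11 and 2.4e-08, edgeR). Of 7 lysosome, ester and oxysterol genes, 6 were lower and 1, the lipoprotein receptor gene Scarb1, was higher in tumor-like than in macrophage-like cells. All 7 were higher in macrophage-like than in T-like cells. Of 8 fatty acid oxidation genes, 5 were higher and 1 lower in tumor-like than in macrophage-like cells. Apoe, an efflux list member, is also a common macrophage gene.

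The tumor-like cells fell into a cluster high in collagen VI and Edil3, a cluster low in them, and an interferon-high cluster. These markers were at 1074, 74.07 and 114.3 CPM in turn. All 4 were detected in each cluster, so the states called with and without them differ in level. Of the 28 members with a mean of at least 10 CPM, 0 were past 1.5-fold higher and 0 past 1.5-fold lower in every library for any of these states. The background share for higher and lower was 4.24% and 0.582% for the state with collagen VI and Edil3, 0.0247% and 1.78% for the state without, and 1.23% and 0% for the interferon-high state. The states are clusters of the same cells, so no test was made. The tumor-like cells of WT anti-PD1 were too few in each state to be compared.

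Among single members, Scd2 had the highest mean over the 3 libraries in the state with collagen VI and Edil3, at log2 ratios to the other tumor-like cells of 0.70, 0.54 and 0.50 in WT IgG, A159V IgG and A159V anti-PD1. Idi1, which isomerizes isopentenyl diphosphate, had the lowest, at -0.41, -0.63 and -0.17. The state made up 1125 of the 2020 tumor-like cells of WT IgG and 107 of the 2107 of A159V anti-PD1, while of the 2814 cells of A159V IgG 2192 were in the state without and 463 in the interferon-high state. State shares thus differed between the genotypes, which bears on the comparison that follows. In the interferon-high state Elovl6 had the highest mean, at 0.28, 0.26 and 0.11.

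In the pooled tumor-like cells the genes of both pathways sat slightly lower with A159V than with WT under IgG, with 1 member past 1.5-fold. This comparison asks how the tumor's own genotype relates to its lipid synthesis genes without PD1 blockade. Among 28 members past the minimum, 0 were past 1.5-fold higher (background 5.21%) and 1 was past it lower (background 10.6%). The median log2 ratio was -0.17, beside -0.02 over all genes. Counting intervals lay below 0 for 20 members and above 0 for 6, which covers counting error and not the difference between mice. The share of all genes with such intervals is not given here, so these counts have no background. Tm7sf2 did not reach the minimum.

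Nsdhl, a sterol dehydrogenase of the lanosterol to cholesterol path, was at 17.0 CPM (16.0 to 18.1) in WT IgG and 10.1 CPM (9.49 to 10.8) in A159V IgG, a log2 ratio of -0.69 (-0.81 to -0.58). It was the 1 member past 1.5-fold, and it was not past it with a pseudocount of 10 CPM, with equal weight to each cell or to each state, or without the added cluster. Scd2 was at 103 and 73.2 CPM (log2 ratio -0.48, -0.53 to -0.43). Hmgcs1, an early synthase of the mevalonate path, was at 142 and 107 CPM (-0.41, -0.45 to -0.36). Msmo1, the sterol methyl oxidase, stood at -0.36 and Elovl6 at -0.33. The highest ratios were those of Hsd17b7 (0.27), Scd1 (0.24), Fasn (0.22), Idi1 (0.20) and Sc5d, the lathosterol desaturase (0.12).

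Some of these ratios held within each state and others did not. Msmo1 was at -0.40 in the state with collagen VI and Edil3, -0.40 in the state without and -0.41 in the interferon-high state, near its pooled -0.36. Fdps was at -0.46, -0.48 and -0.32 and Hmgcs1 at -0.35, -0.29 and -0.37. Scd2 was at -0.27, -0.14 and -0.03 within the states, each closer to 0 than the pooled -0.48. Idi1 was at -0.19, 0.03 and 0.01, although its pooled ratio was 0.20. Acaca, the acetyl-CoA carboxylase, was at 0.27 in the state with collagen VI and Edil3 and at -0.36 and -0.31 in the other two. By group, the sterol enzymes had a median of -0.31 in the state with collagen VI and Edil3, -0.17 in the state without and -0.19 in the interferon-high state. The fatty acid genes changed sign, with medians of 0.14, -0.26 and -0.11 beside the pooled -0.33.

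**Figure D2:**
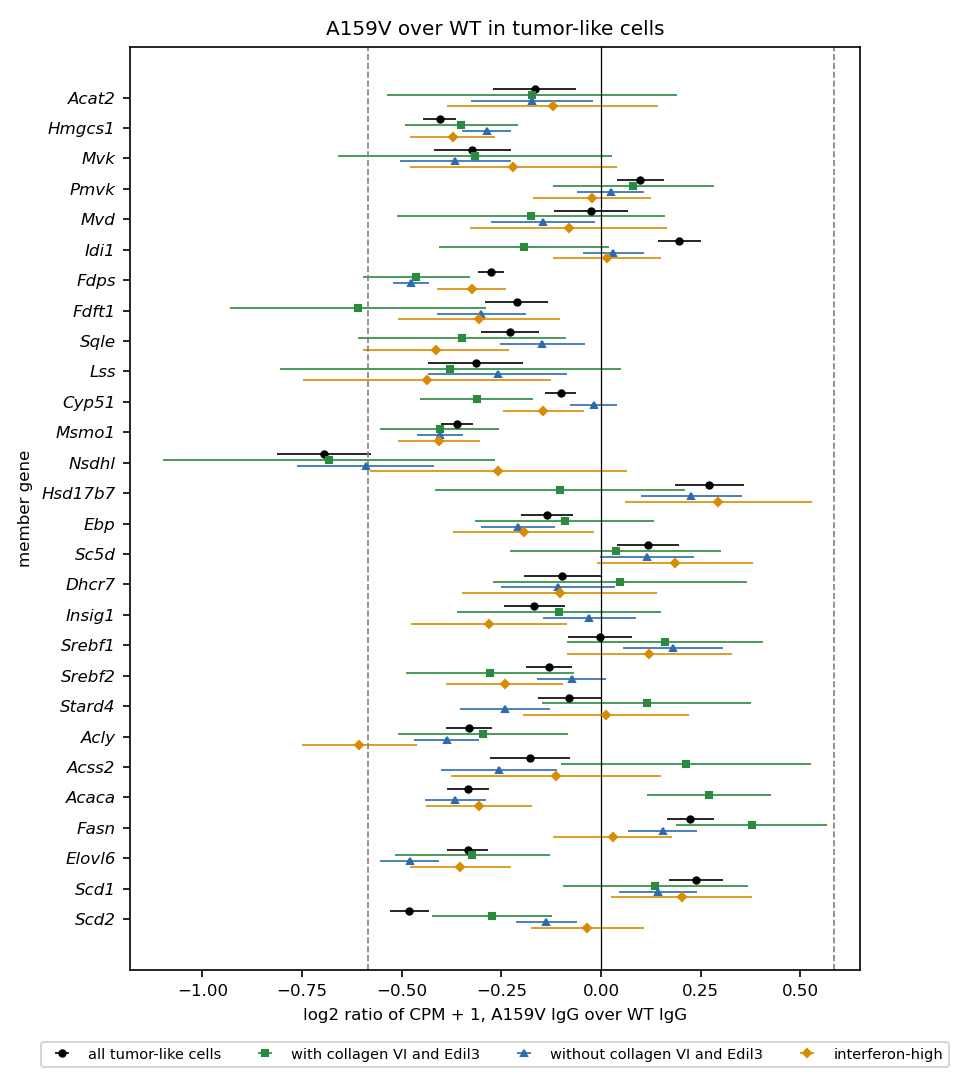
Log2 ratio of CPM + 1, A159V IgG over WT IgG, for 28 members in all tumor-like cells (black circles) and within each tumor-like state (colors), with 95% counting intervals and dashed lines at 1.5-fold. Most points lie between 0 and -0.5, with Hsd17b7, Scd1 and Fasn to the right of 0 in the pooled cells.

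Among listed genes outside the members, the LXR target Mylip (log2 ratio -1.21) was past 1.5-fold lower in A159V IgG, and the cholesterol esterifying enzyme Soat1 (0.81) was past it higher. Gene span moved with this comparison as well: the median ratio of genes over 100 kb was -0.35. After ratios were centred by span class, again 1 member was past the fold lower and 0 higher, with a median of -0.17.

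In A159V tumors the members sat slightly higher in tumor-like cells under anti-PD1 than under IgG. In A159V anti-PD1 against A159V IgG, 0 of 28 members were past 1.5-fold higher (background 0.532%) and 0 past it lower (background 0.39%). The median log2 ratio was 0.23, beside 0.08 over all genes. Counting intervals lay above 0 for 25 members, again without the share of all genes beside it. Ratios here rose with gene span, from a median of -0.095 in genes under 3 kb to 0.177 in those over 100 kb. The part of this in the members' ratios was not tested. Scd2 was at 73.2 CPM in A159V IgG and 106 CPM in A159V anti-PD1 (0.52, 0.48 to 0.57), Nsdhl at a ratio of 0.33, Scd1 at 49.8 and 62.1 CPM (0.31) and Acly, the ATP citrate lyase, at 54.9 and 68.1 CPM (0.31). Dhcr7, the last reductase of one branch to cholesterol, was at 0.29. The lowest ratios were those of Ebp, a sterol isomerase (0.00), Insig1 (0.02), Stard4, a sterol carrier (0.05), Idi1 (0.13) and Mvd, the mevalonate diphosphate decarboxylase (0.13).

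These values sit beside those of the genotype comparison, which shares the A159V IgG library. Scd2 read 103, 73.2 and 106 CPM in WT IgG, A159V IgG and A159V anti-PD1, Hmgcs1 142, 107 and 128 CPM, and Fdps 206, 170 and 204 CPM. The 2 sets of ratios are therefore not independent. In WT anti-PD1 the same genes stood at 81.5, 54.2 and 34.7 CPM over 60 cells, 41 of them in the cluster added by the later rule. Against WT IgG, 19 of 28 members were past 1.5-fold lower there (background 7.65%) and 1, Hsd17b7, past it higher (background 17.5%). Of 17 sterol enzymes 15 were lower, with a median of -0.99, and the fatty acid genes had a median of -0.17, beside 0.15 over all genes. This is the opposite direction to the A159V comparison, in the library that stood apart, and the difference was not tested.

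Few members differed by the genotype of the tumor under IgG in the pooled macrophage-like cells. Of 15 members past the minimum, 1 was past 1.5-fold higher with A159V than with WT (background 1.62%) and 0 were past it lower (background 2.37%), with a median log2 ratio of -0.08 beside 0.00 over all genes. Sc5d was at 8.13 CPM (6.39 to 10.2) and 14.9 CPM (11.9 to 18.4), a ratio of 0.80 (0.39 to 1.21) on 75 and 86 UMIs. It was not past the fold with a pseudocount of 10 CPM. After it came Fdft1, the squalene synthase (0.37), Hmgcs1 (0.28), Msmo1 (0.24) and Idi1 (0.05). The lowest were Acly (-0.38), Acaca (-0.28), Insig1 (-0.23), Srebf1 (-0.19) and Cyp51 (-0.15). Outside the members Ch25h, which makes an oxysterol, was at -0.99, and of the 7 cell cycle genes past the minimum 3 were past 1.5-fold lower. The cluster medians were not all of 1 sign: the sterol enzymes had a median of 0.52 in classical monocytes and -0.42 in the cluster highest in C1q genes, with 0.13 in nonclassical monocytes, 0.24 in a cluster led by Cxcl3 and 0.23 in one led by Mrc1. They rest on 9, 7, 10, 6 and 7 enzymes in turn, and the last on 89 and 67 cells. In classical monocytes 3 enzymes were past 1.5-fold higher and 0 lower, and in the C1q cluster 0 higher and 1 lower. Over all genes the cluster medians were 0.00 to 0.05. The cluster called nonclassical monocytes was named by markers such as Adgre4 and Ace. It also held Ly6c2, a listed marker of classical monocytes, at 1061 CPM, against 2722 CPM in those and 123.2 to 687.5 CPM in the other clusters.

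Under anti-PD1, the pooled macrophage-like cells of WT tumors were low in sterol enzymes and high in Scd2 and in efflux and uptake genes. Of 13 members past the minimum, 3 were past 1.5-fold higher than in the IgG control (background 18.2%) and 5 past it lower (background 14.3%). The median log2 ratio was -0.25, beside 0.06 over all genes. Fdps was at 23.7 CPM (20.7 to 27.1) in WT IgG and 3.83 CPM (2.63 to 5.37) in WT anti-PD1, a ratio of -2.36 (-2.79 to -1.93). Cyp51 stood at -1.72, Srebf2 at -1.13, Idi1 at -1.09 and Pmvk, the phosphomevalonate kinase, at -0.84. Scd2 was at 31.3 CPM (27.8 to 35.2) and 192 CPM (183 to 201), a ratio of 2.58 (2.40 to 2.75). Insig1 was at 35.9 and 68.1 CPM (0.91) and Acly at 0.64, followed by Acaca (0.50) and Srebf1 (0.45).

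The mevalonate genes did not share a ratio. Hmgcs1 was at 29.8 and 31.2 CPM (0.06, -0.17 to 0.30), while Fdps, Idi1 and Pmvk beside it in the path were lower. Among listed genes outside the members, Abca1 was at 333 and 1523 CPM (2.19), the fatty acid transporter Cd36 at 3.18, the lysosomal lipase Lipa at 1.52, Mylip at 1.68, the lysosomal cholesterol transporter Npc1 at 1.20 and Abcg1 at 169 and 340 CPM. Apoe was at 1.12, Soat1 at 0.75, Acsl3 at 1.21 and the carnitine transferase Cpt1a at 1.05, with Acadm at 0.73. Npc2 (-0.62), Scarb1 (-0.95) and Ch25h (-0.85) were lower.

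The subset makeup of this class differed between libraries. A cluster led by Mrc1 held 1355 of the 1760 macrophage-like cells of WT anti-PD1 and 89 of 2383 in WT IgG. Within it Scd2 was at 91.5 CPM in WT IgG and 231 CPM in WT anti-PD1 (1.32, 0.88 to 1.77), and Insig1 at 73.6 and 75.5 CPM (0.04, -0.47 to 0.54). In nonclassical monocytes Scd2 was at 22.8 and 61.1 CPM (1.38), Fdps at -1.95 and Cyp51 at -2.14. In the cluster highest in C1q genes Scd2 was at 0.40 (-0.17 to 0.96) and in the Cxcl3 cluster, which also expressed Arg1 though less than the Mrc1 cluster, at -0.16 (-0.85 to 0.52). The low sterol values of the pooled cells, a median of -0.84, were not shared by all clusters. Among enzymes past the minimum the median was -1.09 in nonclassical monocytes, -0.34 in the Mrc1 cluster, -0.12 in the C1q cluster and 0.49 in the Cxcl3 cluster, where each rested on 10 UMIs or fewer in the 96 cells of WT anti-PD1. The 18 enzymes summed to 225 and 160 CPM in the Mrc1 cluster, 317 and 165 CPM in nonclassical monocytes, 193 and 133 CPM in the C1q cluster and 133 and 140 CPM in the Cxcl3 cluster.

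In macrophage-like cells of A159V tumors, 0 of 15 members were past 1.5-fold higher under anti-PD1 (background 2.9%) and 1 past it lower (background 1.9%), with a median of -0.15 beside 0.01 over all genes. Sc5d was at 14.9 and 9.16 CPM in A159V IgG and A159V anti-PD1 (-0.64, -1.03 to -0.26), a call lost with a pseudocount of 10 CPM or over 1000 genes per cell. Fdps was at -0.37, Cyp51 at -0.35, Hmgcs1 at -0.33 and Msmo1 at -0.22. Acaca (0.53), Scd2 (0.17), Acly (0.16), Srebf1 (0.10) and Insig1 (0.09) were highest. Abca1 was at 394 and 437 CPM, Cd36 at 1.15, Ch25h at 1.02 and Apoe at -0.66. Whether the response to anti-PD1 differed between the genotypes was not tested.

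In T-like cells, 1 of 20 members was past 1.5-fold higher with A159V under IgG (background 5.32%) and 0 past it lower (background 2.59%), with a median of -0.02 beside 0.05. Hmgcs1 was at 28.7 and 44.3 CPM (0.61, 0.18 to 1.03), followed by Scd2 (0.53), Elovl6 (0.49), Fasn (0.36) and Fdft1 (0.35). The lowest were Srebf1 (-0.41), Nsdhl (-0.37), Stard4 (-0.34), Sc5d (-0.31) and Srebf2 (-0.17), each with an interval that spans 0. Hmgcs1 was not past the fold under median-of-ratios scaling. By subset, the sterol enzymes had medians of -0.21 in CD8 cells, 0.44 in regulatory T cells and 1.17 in conventional CD4 cells. The last rested on 141 and 82 cells with medians of only 1878 and 1114 UMIs per cell. In that subset 5 of 8 enzymes were past 1.5-fold higher and 0 lower, beside 27.6% and 19.3% of all genes. Apoe, abundant in macrophage-like cells, was at 10.9 and 49.2 CPM (2.08).

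Under anti-PD1 in WT tumors, T-like cells had 6 of 20 members past 1.5-fold lower (background 14.1%) and 3 past it higher (background 21.3%). The median was -0.33, beside 0.22 over all genes, so ratios lie 0.22 lower when set against the typical gene. Fdps was at 27.0 CPM (21.8 to 33.0) and 5.20 CPM (3.37 to 7.68), a ratio of -2.17 (-2.73 to -1.62). Cyp51 stood at -1.98, Idi1 at -1.59, Pmvk at -1.48, Msmo1 at -0.69 and Fdft1 at -0.64. Scd2 was at 26.4 CPM (21.3 to 32.4) and 65.4 CPM (58.3 to 73.0), a ratio of 1.28 (0.95 to 1.60), Elovl6 at 43.6 and 98.5 CPM (1.16) and Acss2 at 0.95, with Acaca at 0.58 and Acly at 0.55. Among the listed genes Abca1 was at 10.3 and 116 CPM (3.37), Mylip at 1.66, Abcg1 at 1.56, Cpt1a at 1.32, Elovl5 at 1.05, Soat1 at 0.83 and Nr1h2 at 0.60. Apoe was at 10.9 and 40.6 CPM (1.80), and 6 of 10 cell cycle genes were past 1.5-fold lower. The part of stray RNA or of division in the members' ratios was not tested.

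By T cell subset, Fdps was at -2.59 in CD8 cells, -3.55 in regulatory T cells and -1.41 (-3.17 to 0.36) in conventional CD4 cells. The sterol enzymes together had medians of -0.82 and -1.03 in the first 2 subsets but 0.01 in conventional CD4 cells, beside 0.19, 0.13 and 0.23 over all genes. Scd2 was at 0.54, 0.93 and 1.93. The CD8 cells of the 2 libraries sat in different clusters: 473 of WT anti-PD1 were in a cluster with Havcr2 at 559 CPM, which held 7 of WT IgG, while 149, 120 and 60 of WT IgG were in 3 others with Havcr2 at 34.9, 314 and 167 CPM. The part of that makeup in the CD8 values was not tested. Elovl6 was not alike across subsets: it was at 56.8 and 255 CPM in regulatory T cells (2.15, 1.68 to 2.61) and at 30.2 and 24.6 CPM in CD8 cells (-0.28, -0.85 to 0.28). A further 241 T-like cells of WT anti-PD1 formed a cluster with at most 17 cells in any other library. It scored closest to a CD8 memory list, but Cd8b1 was at 14.6 CPM, against 288 to 604 in the 4 CD8 clusters, and the gamma delta receptor gene Trdc at 132 CPM, so it is left unnamed. In it the 7 fatty acid genes summed to 541 CPM and the 18 sterol enzymes to 182 CPM.

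In A159V tumors, 0 of 20 members in T-like cells were past 1.5-fold higher under anti-PD1 (background 4.12%) and 3 were past it lower (background 4.51%), with a median of -0.06 beside 0.04. Hmgcs1 was at 44.3 and 24.4 CPM (-0.83, -1.29 to -0.38), Fdps at 26.8 and 15.4 CPM (-0.76) and Scd2 at 38.7 and 24.4 CPM (-0.64, -1.11 to -0.17). Ebp and Msmo1 followed at -0.32 and -0.31. The highest were Acaca (0.56), Nsdhl (0.46), Srebf1 (0.45), Acly (0.19) and Stard4 (0.19). These counts rest on 43 to 76 UMIs for each of the 3 lower members in each library. Abca1 was at 8.10 and 17.0 CPM (0.99) and Apoe at 49.2 and 24.1 CPM.

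**Figure D3:**
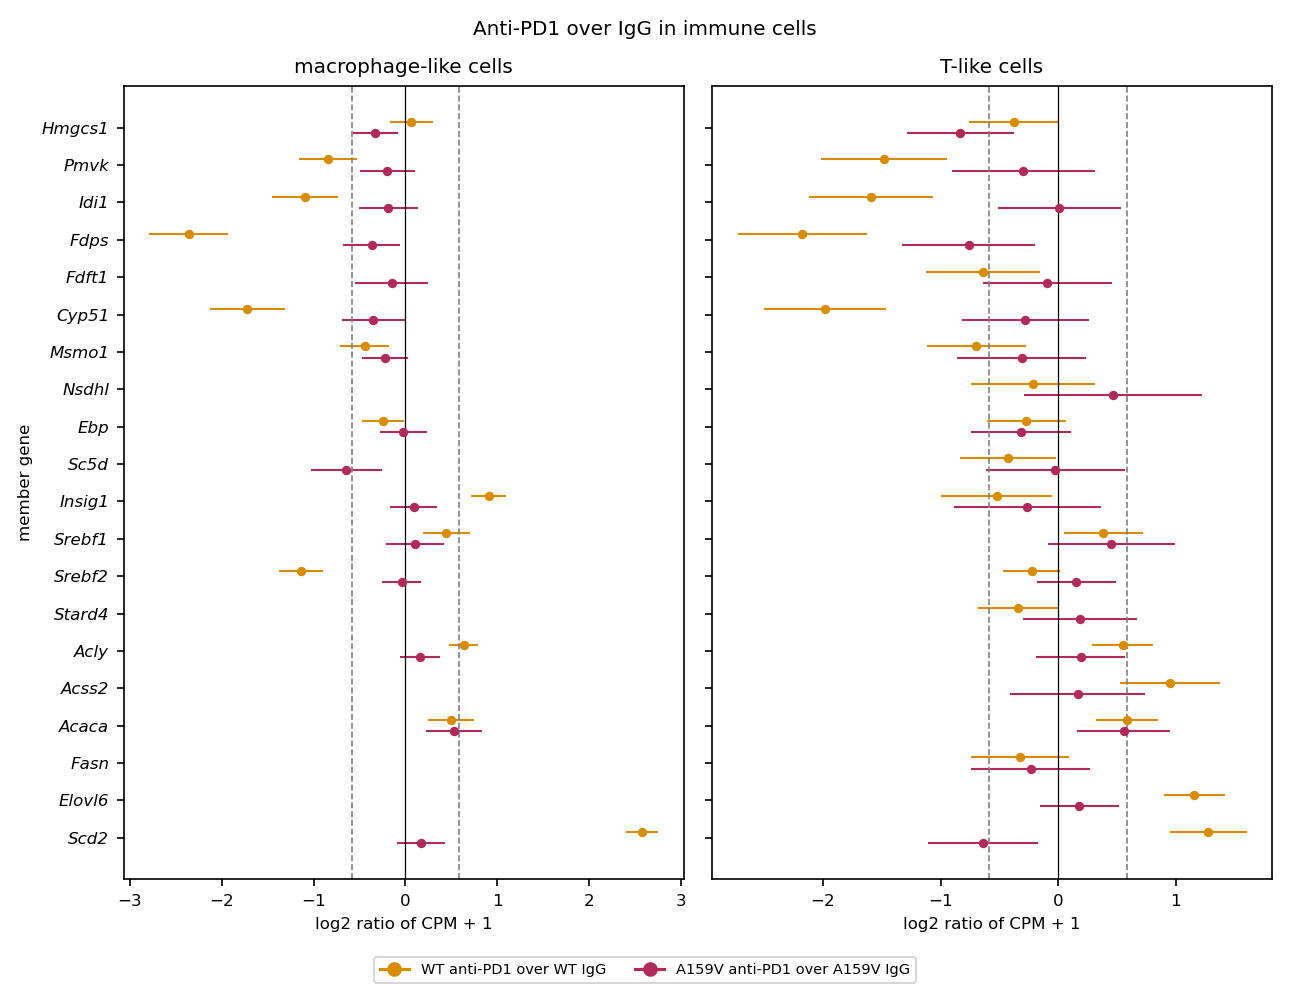
Log2 ratio of CPM + 1, anti-PD1 over IgG, in macrophage-like and T-like cells of WT (orange) and A159V (magenta) tumors, with 95% counting intervals and dashed lines at 1.5-fold. Members under the minimum in a comparison have no point. Fdps lies at -2.36 and -2.17 in WT and at -0.37 and -0.76 in A159V.

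The WT anti-PD1 library differed from WT IgG in its RNA as well, and these values move with the results above. Ribosomal protein genes took 9.19% of UMIs in its T-like cells against 16.3% in WT IgG, and 5.67% against 7.69% in macrophage-like cells. Gapdh was at 382 against 811 CPM and at 600 against 1071 CPM. Genes over 100 kb took 23.9% of UMIs in T-like cells against 16.6%, and the correlation of the log2 ratio with log gene span was 0.38 in T-like and 0.089 in macrophage-like cells, across genes, which are not replicates. After ratios were centred by gene span class, 6 members were lower and 3 higher in T-like cells and 5 lower and 2 higher in macrophage-like cells. All 7 interferon genes listed were past 1.5-fold lower in both classes. Shifts with gene span were also present in A159V tumors. In A159V anti-PD1 over A159V IgG the correlation was 0.298 in T-like, 0.19 in macrophage-like and 0.359 in tumor-like cells. In T-like cells of A159V anti-PD1, genes over 100 kb took 19.3% of UMIs against 16.5% in A159V IgG, and ribosomal protein genes 12.2% against 15.2%. The part of RNA quality, library handling or host in the members' ratios was not tested, and 1 library cannot be told apart from its treatment.

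**Figure D4:**
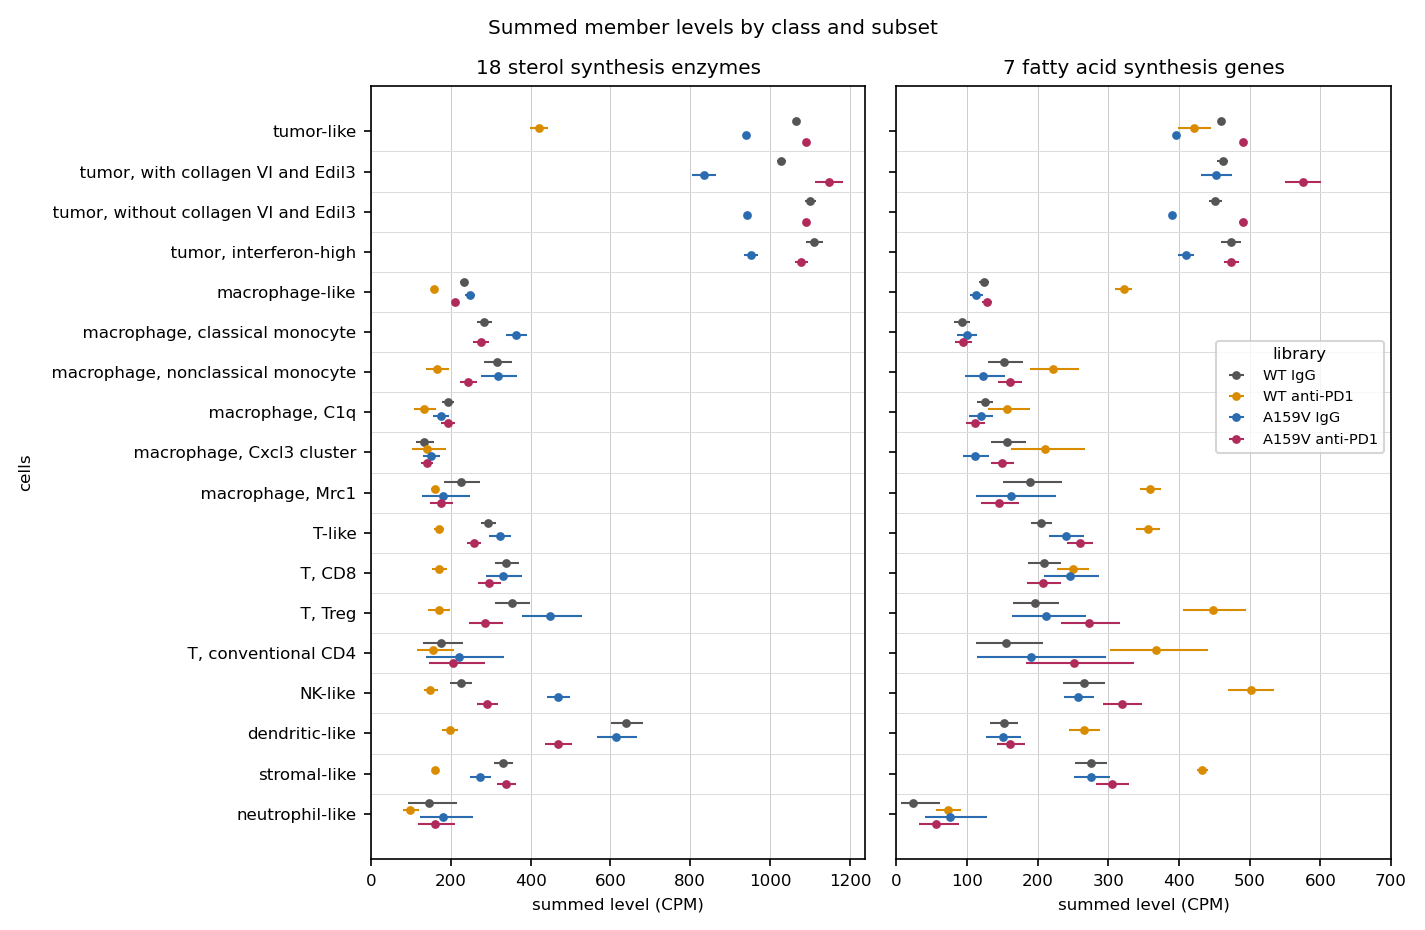
Summed CPM of the 18 sterol enzymes (left) and the 7 fatty acid genes (right) in each class, tumor-like state and immune subset with at least 50 cells in a library, colored by library, with exact Poisson 95% intervals. WT anti-PD1 (orange) is lowest on the left in tumor-like (421 CPM) and dendritic-like cells (198 CPM) and highest on the right in macrophage-like cells (322 CPM).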

How the data were processed

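Single-cell RNA was captured from 4 groups of tumors in 1 droplet library each. The authors deposited raw UMI counts per gene and barcode. The matrix headers name Cell Ranger 7.2.0, the submitters' processing notes Cell Ranger 5.0.1 with mm10, and the study's methods counted introns. Its later removal of stray RNA and doublets came after this stage.

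Here, cells with more than 500 genes were kept and the most doublet-like 0.8% per 1000 cells were removed by a score against simulated doublets (374 to 631 cells per library). Clusters came from 2000 variable genes without the members, 20 components, 20 neighbors and Leiden clustering (leidenalg 0.10.2, resolution 1), without integration. Clusters were named by listed markers, of which at least 3 had to be detected, and 1 cluster of low depth stayed unnamed. Naming of 1 tumor-like cluster followed a rule set after its values were seen.

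UMIs were summed per class and library, which needed at least 50 cells, and divided by their total (CPM). Log2 ratios used CPM + 1 with delta-method 95% intervals, and members needed a mean of at least 10 CPM over both profiles and counted as higher or lower past 1.5-fold. Class contrasts used edgeR 4.0.16 (TMM, filterByExpr, library block), checked on simulated data, with DESeq2 1.42.0, RLE factors, other filters and leave-one-out as alternatives. Few genes differed between the simulated classes, so that check does not cover scaling between classes that differ in most genes. In each comparison, values are given for the members with the 5 highest and 5 lowest ratios, for some pathway genes, and for listed nonmember genes past 1.5-fold, some of which are not reported here. Members and lists were chosen with earlier results of these data known. Promoters were read from RefSeq (GRCm38.p6).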

Additional observations from a re-analysis of the deposited data

Results flagged for a closer look

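Scd2, a fatty acid desaturase gene, went opposite ways under anti-PD1 in T-like cells of the 2 genotypes. Its log2 ratio of anti-PD1 over IgG was 1.28 in WT (26.4 to 65.4 CPM) and -0.642 in A159V (38.7 to 24.4 CPM), with counting intervals of 0.95 to 1.60 and -1.11 to -0.17. With 1 library per group the difference between the genotypes was not tested. Under the alternatives tried the WT ratio ranged down to 0.826 (resolution 2) and the A159V ratio up to -0.5 (pseudocount of 10 CPM), each with its sign.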

How the results depend on the processing

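No paired analysis was possible because each group has a single library, so replicate numbers join no samples across groups. The class contrasts compare classes within each library and hold the library as a block.

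Of 278 recomputed counts of members, 237 stayed within 1.5 times of the value given and 41 did not, most of them counts of 0 to 3. Of 1772 single ratios between libraries, 1584 stayed within their counting interval and 188 did not, none of them with a called value turning sign. In tumor-like cells, A159V IgG over WT IgG, the 1 lower member became 0 with a pseudocount of 10 CPM, equal weight to each cell or to each state, or the fixed marker list alone. For A159V anti-PD1 over A159V IgG, 1 member was higher without cells holding immune or stromal UMIs. In macrophage-like cells the 1 higher member between genotypes became 0 with a pseudocount of 10 CPM and 2 without a minimum, and WT anti-PD1 over WT IgG gave 5 higher and 10 lower members without a minimum. For A159V anti-PD1 there, the 1 lower became 0 with that pseudocount or over 1000 genes per cell and 2 without a minimum, and 1 was higher with the tumor-like profile subtracted. In T-like cells the 1 higher member between genotypes became 0 under median-of-ratios scaling, the pseudocount of 10 or span centring, 2 with at most 10% mitochondrial UMIs, resolution 2 or no minimum, 4 with equal weight to cells and 3 to subsets, with 1 lower without a minimum or by subsets. WT anti-PD1 over WT IgG gave 5 and 6 higher with equal weight to cells and to subsets. A159V anti-PD1 gave 1 higher over 1000 genes, at most 10% mitochondrial, with doublets kept, at resolution 2, or with equal weight to cells or subsets, and 1 lower with the pseudocount, 5 without a minimum and 6 by subsets. The cause of these moves was not tested beyond what each setting changes.

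Between classes, the 1 member lower in tumor-like than in macrophage-like cells became 2 with RLE factors or DESeq2 and 0 at resolution 2, and ranged from 0 to 2 when a library was left out (0 without WT IgG replicate 1 or A159V anti-PD1 replicate 1, 2 without A159V IgG replicate 1). The members higher in macrophage-like than in T-like cells became 10 with the fixed marker list alone. Of 948 single values between classes, 851 kept their side of the threshold, 33 lost it, 40 gained it and 24 changed sign, all of members that had not passed the test. Against macrophage-like cells Acly went to -0.152 (RLE), -0.149 (DESeq2) and -0.168 to 0.188 (leave-one-out, also -0.0297), and Ebp to -0.0137, -0.00387 and -0.0301. Against T-like cells Stard4 went to -0.199, -0.198, -0.111 (doublets kept), -0.129 (resolution 2) and -0.225 to 0.114 (leave-one-out, also -0.0564), Acss2 to 0.0377 (no filter), 0.182 (fixed list) and -0.302 to 0.162 (leave-one-out), Srebf2 to 0.0668, 0.184 and -0.265 to 0.0424, and Elovl6 to -0.0322 to 0.583 (leave-one-out). Macrophage-like minus T-like, Srebf1 went to -0.0161 (no filter), -0.0439 (without the WT anti-PD1 tumor-like profile) and -0.0683 to 0.0717 (leave-one-out), and Idi1 to -0.0337 to 0.325 (leave-one-out). RLE factors moved the median of all genes from 0.196 to -0.035 and from 0.311 to 0.069 against macrophage-like and T-like cells.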

Other observations

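Classes outside the main comparisons also differed between libraries. In NK-like cells the 18 sterol enzymes summed to 225 CPM (199 to 254) in WT IgG and 469 CPM (442 to 498) in A159V IgG, over 228 and 492 cells that fell into clusters in different shares, and to 291 CPM (265 to 318) in A159V anti-PD1. Their cell cycle list, a set of 10 division genes, was at 695, 843 and 730 CPM in the same libraries. In B or plasma-like cells, of which 68 and 84 were in A159V IgG and A159V anti-PD1, the sum was 728 CPM (618 to 853) and 328 CPM (272 to 394), beside tumor-like markers at 224 and 22.5 CPM. The part of either set of genes in these sums was not tested. Endothelial-like cells, with at least 50 cells in WT anti-PD1 alone, held 548 CPM (516 to 582) of the 7 fatty acid genes and 169 CPM (151 to 189) of the 18 sterol enzymes.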
